A study of Saccharomyces cerevisiae with 16 samples.

Results

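The genes described here are 34 genes of Saccharomyces cerevisiae that act in DNA replication and S phase, among the 6227 genes on a single-colour yeast microarray. They were taken by name through the gene and systematic names of the probes, and each of the 34 had 1 probe. They cover nucleotide supply (2 genes), origin licensing and the replicative helicase (8), polymerase alpha-primase and polymerase epsilon (5), the sliding clamp and its loader (6), the single-strand binding complex (3), Okazaki fragment processing (2), cohesin (4) and checkpoint and repair functions (4). All 34 probes lay well above background on 16 of 16 arrays and none was saturated, so no member was lost to the filter on dim probes, which left 6165 genes for testing.

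In budding yeast, a cell commits to a new division late in G1, when G1 cyclins with Cdc28 free the transcription factors SBF and MBF from their repressor. MBF in particular switches on many genes whose products copy DNA, so that their mRNAs peak around the G1 to S transition and fall again as S phase proceeds. The genes of the Mcm helicase subunits follow another timetable, since they are known to be transcribed mostly from the end of mitosis to early G1.

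RNA of 4 lines of cells was measured before methionine removal (0 min) and 45, 90 and 150 min after it, and each line and time has 1 array. In lines WT, H and 170 a plasmid carries a HOG1 gene under the MET3 promoter, which methionine represses, in hog1∆ cells, and line vec is the control with an empty plasmid, in cells named JBY13 in the series record. The HOG1 product is a stress-activated kinase, best known for the response to high osmolarity. Line WT carries the wild-type gene. One label field names D170A for line H and D170A with F318L for line 170, whereas another names D170A for line 170 and no change for line H, so neither line is tied to a mutation in what follows. Plasmid-borne expression of HOG1 from MET3 limits WT, H and 170 as models. The lack of methionine itself limits all 4 lines, and methionine removal is shared by all of them, vec included.

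Levels are log2 intensities relative to the 75th percentile of the array. That percentile ran from 4930 to 11304 intensity units, and 93.4% to 98.8% of the spots of an array exceeded background clearly. WT and H were hybridised on one slide of 8 arrays and vec and 170 on the other, so a difference between lines of different slides cannot be told apart from a difference between slides. No line and time was repeated, so every standard error and p-value here reflects the scatter of a difference over times or lines rather than the variation between cultures, and precision is limited by how few arrays there are. HOG1 stood at -1.67, -2.31, -2.12 and -2.14 in vec over the 4 times, at 1.90, 5.64, 5.49 and 5.74 in WT, at 1.65, 5.54, 5.44 and 5.41 in H and at 1.51, 6.12, 6.01 and 6.16 in 170. Where its probe lies relative to the deleted part of the gene is not given in the sources used here. Bulk RNA cannot tell fewer cells in S phase from less RNA per cell, and this holds for each value below.

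The replication genes rose together after methionine removal, in vec as in the 3 lines with HOG1. Against 0 min, 33 of the 34 genes were higher at 45 min, 32 at 90 min and 31 at 150 min, and none was lower (limma, Benjamini-Hochberg adjusted p under 0.05 over 6165 genes, 16 arrays with a term for the line). Over all genes tested, 31.8%, 33.7% and 33.5% were called higher at these times and 44.5%, 41.0% and 40.0% lower. The median change of the 34 genes was 0.97, 1.24 and 0.81 log2 units, beside medians of -0.17, -0.08 and -0.08 over all genes. The median of all genes at 45 min moved from -0.17 to -0.02 when arrays were scaled to their median and to -0.04 under quantile normalization, and the members' median then stood at 1.12 and 1.16.

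The rise was present in the estimates of each line. Each line had a single array at 0 min, and the error was shared by all lines in the fit to 16 arrays. No line was therefore tested on its own arrays alone. Comparing the mean of the later times with 0 min, 29 members were higher in vec (24.8% of all genes), 31 in WT (29.1%), 29 in H (30.3%) and 32 in 170 (31.6%), while no member was lower, beside 32.7%, 38.2%, 35.5% and 36.5% of all genes (limma, fit to 16 arrays). The medians over the members were 0.91 in vec, 1.11 in WT, 0.88 in H and 1.15 in 170. Counting single arrays, 34, 30 and 34 members stood above 0 min in vec at 45, 90 and 150 min and 34 did so in WT each time. The counts were 34, 33 and 31 for H and 33, 34 and 33 for 170, and of all genes between 41.8% and 48.5% did.

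**Figure D1:**
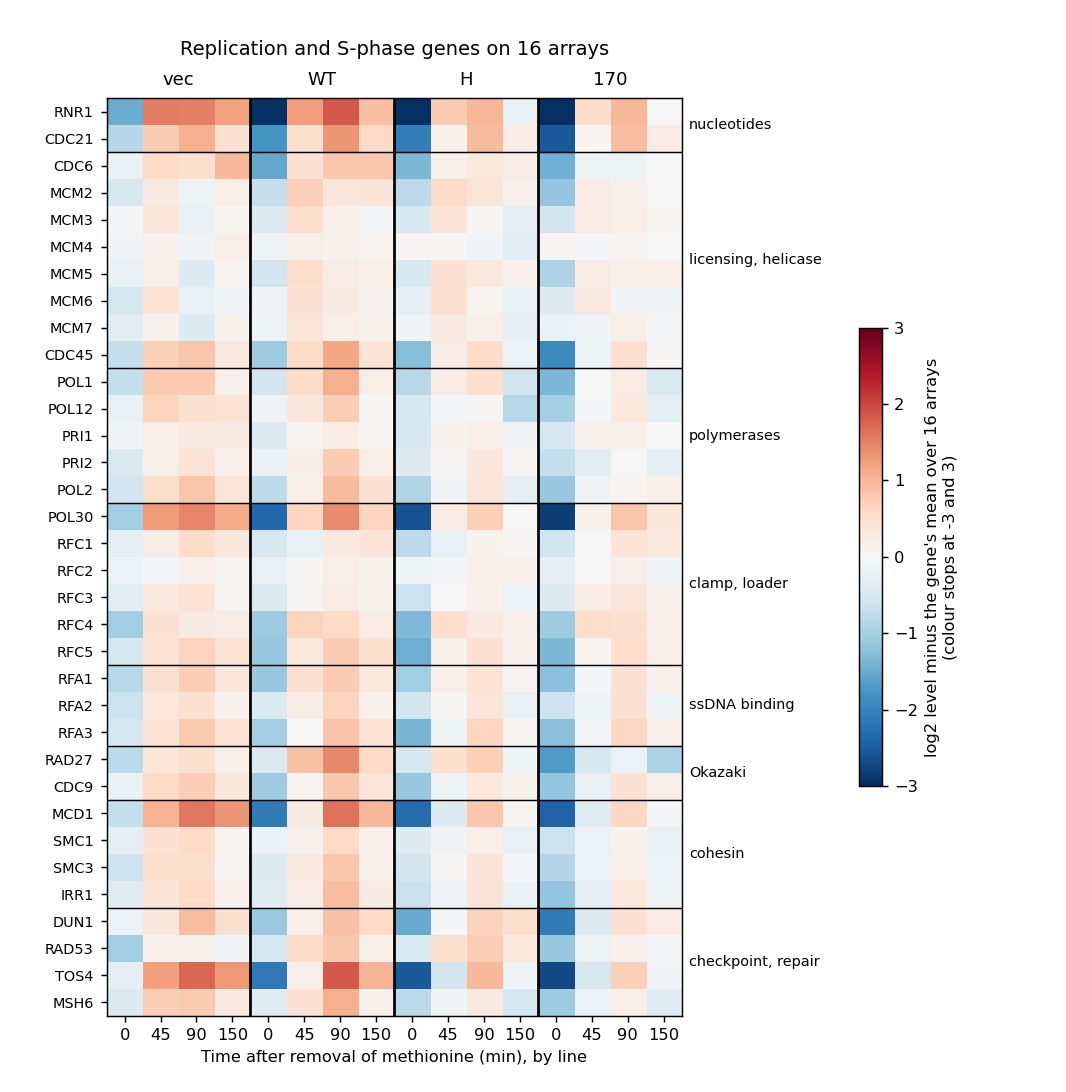
Levels of the 34 genes (rows, grouped by role) on 16 arrays (columns, ordered by line and by minutes after removal), as the log2 level minus the gene's own mean over the 16 arrays, with colours stopping at -3 and 3. The 0 min column is the bluest of each line for most genes, RNR1, CDC21, POL30, MCD1 and TOS4 have the deepest colours, and the rows of MCM4 and RFC2 are nearly flat.

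Of the members, RNR1 moved most. The other gene of nucleotide supply, CDC21, rose less at 90 min than POL30, TOS4 and MCD1. RNR1 (YER070W), the large subunit of ribonucleotide reductase, which makes deoxyribonucleotides, stood at -1.05, 1.97, 1.95 and 1.65 in vec and at -2.52, 1.69, 2.26 and 1.33 in WT at 0, 45, 90 and 150 min. In H it stood at -2.67, 1.22, 1.42 and 0.21, and in 170 at -3.36, 0.98, 1.43 and 0.44. Every later array of RNR1 lay above all 4 arrays at 0 min, and H and 170 lay below vec and WT at each later time. RNR1 rose by 3.87 ± 0.24 log2 units at 45 min and by 4.17 ± 0.24 at 90 min (limma, adjusted p = 4.2e-08 and 4.0e-08), the largest changes among the members. CDC21 (YOR074C), thymidylate synthase, had levels of -2.73, -1.13, -0.82 and -1.43 in vec and -3.64, -1.38, -0.56 and -1.28 in WT. Its levels were -3.95, -1.75, -0.93 and -1.65 in H and -4.40, -1.81, -0.95 and -1.63 in 170, with each line highest at 90 min and with the 0 min arrays apart from all others. CDC21 rose by 2.86 ± 0.20 at 90 min (adjusted p = 9.8e-08).

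The genes of origin licensing and the helicase split into strong and weak responders. CDC45 (YLR103C), which joins the Mcm ring and GINS to form the active helicase, stood at -2.75, -1.34, -1.22 and -1.76 in vec and at -3.12, -1.52, -0.91 and -1.65 in WT. In H it stood at -3.34, -1.84, -1.50 and -2.24 and in 170 at -3.96, -2.20, -1.55 and -2.03, so that each line was lowest at 0 min and highest at 90 min. CDC45 rose by 1.57 ± 0.14 at 45 min and stood 1.38 ± 0.14 above 0 min at 150 min (limma, adjusted p = 6.5e-07 and 2.7e-06). CDC6 (YJL194W), which loads the Mcm ring onto origins, had levels of -4.51, -3.71, -3.83 and -3.32 for vec, -5.83, -3.86, -3.49 and -3.50 for WT, -5.66, -4.14, -3.98 and -4.07 for H and -5.73, -4.43, -4.46 and -4.29 for 170. The vec array at 0 min was the highest of that time, and the later arrays of 170 lay closest to it. CDC6 rose by 1.49 ± 0.20 at 90 min (adjusted p = 2.0e-05).

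The 6 Mcm genes, which encode the ring of the helicase, moved less. MCM2 had the largest change of them at 45 min with 1.23 ± 0.13, followed by MCM5 with 0.88 ± 0.16, MCM3 with 0.75 ± 0.13, MCM6 with 0.72 ± 0.09 and MCM7 with 0.36 ± 0.13, all called higher (limma, largest adjusted p = 0.024). MCM4 (YPR019W) was not called at any time, with changes of 0.11 ± 0.10, 0.04 ± 0.10 and 0.00 ± 0.10. It stood at -1.10, -0.90, -1.11 and -0.88 in vec, at -1.16, -0.87, -0.90 and -0.97 in WT, at -0.98, -0.97, -1.10 and -1.34 in H and at -0.99, -1.07, -0.96 and -1.03 in 170. Its arrays at 0 min overlapped those at every later time. Among 11 alternative settings it was called at 45 min in 1, the scaling of arrays to their median.

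All 5 genes of polymerase alpha-primase and polymerase epsilon were higher at 45 and 90 min. POL1 (YNL102W), the catalytic subunit of polymerase alpha, stood at -2.52, -1.01, -1.02 and -1.66 in vec, at -2.38, -1.26, -0.73 and -1.60 in WT, at -2.63, -1.59, -1.32 and -2.36 in H and at -3.15, -1.78, -1.56 and -2.26 in 170. It was highest at 45 or 90 min in each line and had lost part of the rise by 150 min. The change of POL1 was 1.51 ± 0.11 at 90 min and 0.69 ± 0.11 at 150 min (limma, adjusted p = 1.3e-07 and 9.4e-05). POL2, the catalytic subunit of polymerase epsilon, rose by 1.40 ± 0.12 at 90 min, and the primase genes PRI1 (YIR008C) and PRI2 (YKL045W) rose by 0.58 ± 0.07 and 0.82 ± 0.08 (largest adjusted p = 1.9e-05). POL12, a further subunit of polymerase alpha, rose by 0.85 ± 0.16 at 90 min, and at 150 min its change of 0.29 ± 0.16 was not called (adjusted p = 0.11). PRI1 moved in a narrow range, with -0.43, -0.13, -0.05 and -0.06 for vec, -0.73, -0.25, -0.09 and -0.28 for WT, -0.83, -0.22, -0.17 and -0.44 for H and -0.82, -0.19, -0.18 and -0.33 for 170. PRI2 stood at -1.08, -0.44, -0.22 and -0.46 for vec, -0.82, -0.40, 0.15 and -0.41 for WT, -1.01, -0.60, -0.28 and -0.59 for H and -1.33, -0.93, -0.62 and -0.89 for 170. Line 170 was the lowest for PRI2 at all 4 times, whereas the later arrays of PRI1 overlapped between lines.

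POL30 (YBR088C), the sliding clamp PCNA, stood at -0.67, 1.62, 1.80 and 1.46 in vec and at -2.00, 0.99, 1.76 and 0.98 in WT. In H it stood at -2.27, 0.58, 1.07 and 0.36 and in 170 at -2.47, 0.45, 1.18 and 0.68. Later arrays and arrays at 0 min did not overlap, and every line was highest at 90 min. POL30 rose by 3.31 ± 0.17 at 90 min (limma, adjusted p = 2.1e-08). Among the genes of the clamp loader RFC, which opens PCNA and places it on DNA, RFC5 rose by 1.71 ± 0.11, RFC4 by 1.53 ± 0.08, RFC1 by 0.89 ± 0.08, RFC3 by 0.73 ± 0.07 and RFC2 by 0.36 ± 0.07 (largest adjusted p = 0.00034). The subunits of this complex therefore differed in the size of their rise. RFC2 (YJR068W) was nearly level, with -1.34, -1.21, -1.02 and -1.14 for vec, -1.39, -1.13, -0.96 and -1.06 for WT, -1.29, -1.21, -1.02 and -1.03 for H and -1.43, -1.16, -1.01 and -1.25 for 170. RFC5 (YBR087W) stood at -2.83, -1.88, -1.62 and -1.90 for vec, -3.43, -1.97, -1.55 and -1.82 for WT, -3.76, -2.19, -1.86 and -2.16 for H and -3.65, -2.23, -1.79 and -2.10 for 170. For RFC5 the lines with HOG1 started below vec, and H and 170 stayed below vec and WT at each later time.

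RFA1, RFA2 and RFA3, the subunits of the complex RPA that coats single-stranded DNA, rose by 1.65 ± 0.09, 1.05 ± 0.09 and 1.78 ± 0.11 at 90 min (limma, largest adjusted p = 4.1e-07). RFA1 (YAR007C) stood at -1.29, -0.01, 0.28 and -0.13 for vec, -1.59, -0.02, 0.29 and -0.16 for WT, -1.52, -0.26, -0.05 and -0.38 for H and -1.71, -0.54, -0.03 and -0.34 for 170. RFA2 (YNL312W) stood at -0.24, 0.71, 0.86 and 0.53 for vec, -0.04, 0.63, 1.06 and 0.52 for WT, -0.15, 0.44, 0.76 and 0.17 for H and -0.23, 0.28, 0.85 and 0.26 for 170. Both were highest at 90 min in every line, with no overlap between 0 min and the later arrays. In Okazaki fragment processing, the flap nuclease gene RAD27 rose by 1.48 ± 0.12 and the DNA ligase gene CDC9 by 1.47 ± 0.14 (largest adjusted p = 1.3e-06). CDC9 (YDL164C) stood at -2.31, -1.52, -1.36 and -1.78 for vec, -3.18, -2.02, -1.30 and -1.76 for WT, -3.25, -2.25, -1.80 and -2.01 for H and -3.28, -2.32, -1.68 and -1.92 for 170, so the vec array at 0 min was as high as the lowest arrays at 45 min and each line was highest at 90 min. The levels of RAD27 are given with the differences between lines.

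Among the cohesin genes, MCD1, the kleisin subunit that closes the ring and that is made anew each cycle, moved far more than the others. MCD1 (YDL003W) stood at -2.31, -0.53, 0.01 and -0.25 in vec and at -3.69, -1.31, 0.05 and -0.58 in WT. In H it stood at -3.88, -1.98, -0.77 and -1.51 and in 170 at -4.02, -1.94, -0.97 and -1.65, so the highest level at 0 min, in vec, lay below every level at 90 and 150 min. MCD1 rose by 3.05 ± 0.17 at 90 min, beside 0.75 ± 0.09 for SMC1, 1.07 ± 0.10 for SMC3 and 1.19 ± 0.10 for IRR1 (limma, largest adjusted p = 6.4e-06). SMC1 (YFL008W) stood at -0.45, 0.29, 0.45 and -0.11 for vec, -0.36, -0.03, 0.43 and -0.03 for WT, -0.54, -0.25, 0.02 and -0.37 for H and -0.80, -0.33, -0.06 and -0.37 for 170, and the levels of H and 170 at 150 min lay about where WT stood at 0 min.

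TOS4 (YLR183C), a forkhead-associated domain protein known as a target of the G1/S transcription factors, stood at -2.35, -0.85, -0.35 and -0.79 in vec and at -4.24, -1.92, -0.26 and -1.08 in WT. In H it stood at -4.62, -2.65, -1.12 and -2.22 and in 170 at -4.80, -2.60, -1.38 and -2.17. The arrays of H and 170 at 45 min lay below the array of vec at 0 min, while within each line all later arrays lay above 0 min. TOS4 rose by 3.22 ± 0.24 at 90 min (limma, adjusted p = 1.9e-07). The checkpoint kinase genes DUN1 and RAD53 rose by 1.95 ± 0.21 and 1.24 ± 0.09, and MSH6, a mismatch recognition protein, by 1.24 ± 0.10 (largest adjusted p = 3.5e-06). MSH6 (YDR097C) stood at -1.63, -0.46, -0.42 and -0.91 for vec, -1.56, -0.76, -0.14 and -1.07 for WT, -2.02, -1.28, -0.92 and -1.73 for H and -2.29, -1.39, -1.04 and -1.57 for 170. DUN1 (YDL101C) stood at -2.33, -1.81, -1.24 and -1.69 for vec, -3.27, -1.98, -1.28 and -1.56 for WT, -3.68, -2.19, -1.48 and -1.62 for H and -4.25, -2.54, -1.72 and -1.91 for 170. At 0 min DUN1 spread widely between lines, with vec highest and 170 lowest, and at 150 min the lines lay close together, while MSH6 kept H and 170 below vec and WT at every time.

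**Figure D2:**
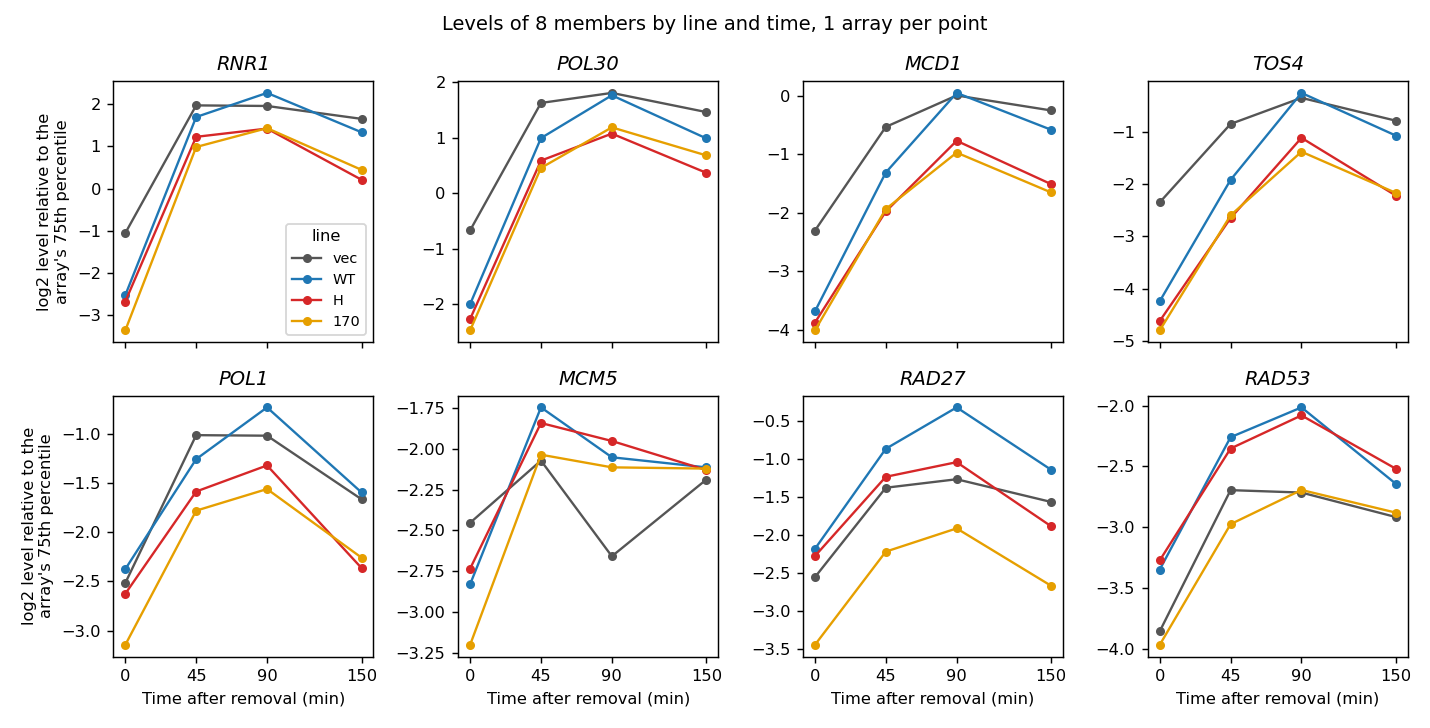
Levels of 8 of the genes by minutes after removal (x axis) as log2 intensity relative to the array's 75th percentile (y axis, its own range in each panel), with 1 array per point and a line for each of vec, WT, H and 170. RNR1, POL30, MCD1 and TOS4 climb steeply from 0 to 45 min and lie lower in H and 170 than in vec and WT at each later time, RAD27 is lowest in 170 at all 4 times, and in RAD53 the lines WT and H lie above vec and 170.

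Between 45 and 90 min 18 members rose and 1 fell, beside 13.9% and 10.4% of all genes (limma, adjusted p under 0.05). TOS4 (1.23 ± 0.24), MCD1 (1.02 ± 0.17), CDC21 and DUN1 (0.70 ± 0.20 and 0.70 ± 0.21) and RFA3 (0.68 ± 0.11) had the largest further rises, and all 4 cohesin and all 3 RPA genes were among the 18. The gene that fell was MCM6, by 0.39 ± 0.09 on the log2 scale (adjusted p = 0.011), and the other 5 Mcm genes had changes between -0.32 and -0.07 that were not called. The calls of this step depended on the lines included: 4 remained without WT, 1 without H and 3 without 170, where 13, 18 and 17 members were higher at an unadjusted p under 0.05 and the median step was 0.22, 0.33 and 0.28 beside 0.29 with all lines. There were 12 calls under median scaling or quantile normalization, and none on the slide of vec and 170 alone, where 4 members had an unadjusted p under 0.05 upward and 1 downward. On the slide of WT and H alone 18 were called.

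Between 90 and 150 min 12 members fell and none rose, beside 2.16% and 1.54% of all genes (limma, adjusted p under 0.05). POL1 fell by 0.81 ± 0.11, MSH6 by 0.69 ± 0.10, RAD27 by 0.68 ± 0.12 and CDC45 by 0.62 ± 0.14 on the log2 scale. The other 8 were IRR1, RFA2, RFA3, SMC3, SMC1, RFA1, RAD53 and PRI2, with falls between 0.34 and 0.54. RNR1, with -0.86 ± 0.24, and TOS4, with -0.79 ± 0.24, had estimates of that size that were not called (adjusted p = 0.070 and 0.084), and 32 of the 34 estimates were negative. No member was called without WT, H or 170, where 20, 18 and 20 had an unadjusted p under 0.05 downward, and 21 were called without vec.

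Among the later times, 90 min was the highest for 21 members in vec, 26 in WT, 27 in H and 27 in 170, beside 27.6%, 26.2%, 21.9% and 31.6% of all genes. A set of 19 genes was highest at 90 min in all 4 lines, as were 7.06% of all genes: CDC21, CDC45, PRI1, PRI2, POL30, RFC2, RFC3, RFC5, RFA1, RFA2, RFA3, RAD27, CDC9, MCD1, SMC1, IRR1, DUN1, TOS4 and MSH6. MCM2, MCM3, MCM5, MCM6 and RFC4 were highest at 45 min in all 4 lines. These 5 of the 34 genes were no larger a share than the 16.9% of all genes. Of the 6 Mcm genes, 5 were highest at 45 min in vec, 6 in WT, 6 in H and 4 in 170. The shares of all genes highest at 45 min were 39.4%, 33.5%, 37.3% and 35.6% in the same order. All of these are counts over single arrays and carry no test.

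**Figure D3:**
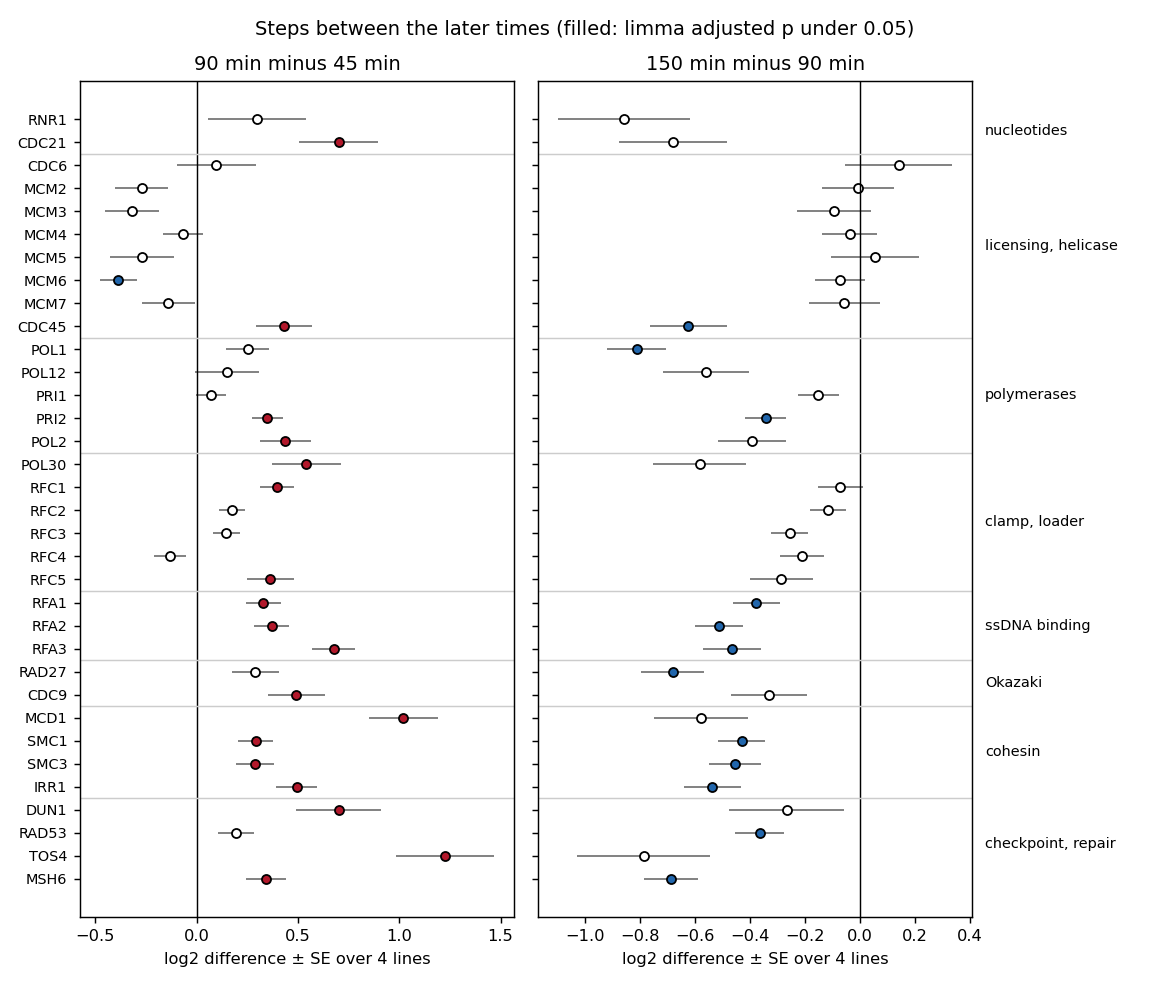
Steps of the 34 genes from 45 to 90 min (left) and from 90 to 150 min (right), as log2 differences with standard errors over 4 lines, grouped by role, where filled points passed limma's adjusted p of 0.05. Most genes lie to the right of 0 on the left and to the left of 0 on the right, and the Mcm genes lie left of 0 in the first step and near 0 in the second.

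The lines differed in the level these genes reached after removal. Within the slide that WT and H share, 11 members were lower in H than in WT after removal and none was higher, beside 1.64% and 4.33% of all genes (limma on the 12 arrays after removal with a term for the time, adjusted p under 0.05). All 34 estimates were below 0, with a median of -0.28 beside -0.03 over all genes, and 27 of the 34 genes were lower at 3 of 3 times, beside 32.8% of all genes. The 11 genes were TOS4 (-0.91 ± 0.19), RNR1 (-0.81 ± 0.17), MCD1 (-0.81 ± 0.14), POL12 (-0.66 ± 0.15), MSH6 (-0.66 ± 0.11), RAD27 (-0.61 ± 0.12), POL30 (-0.57 ± 0.12), POL1 (-0.56 ± 0.11), CDC45 (-0.51 ± 0.12), IRR1 (-0.44 ± 0.10) and RFC5 (-0.29 ± 0.07), with adjusted p from 0.019 to 0.049. Each of them was lower at 45, 90 and 150 min, and MCD1 for example differed by -0.67, -0.82 and -0.93 at these times. Without 45 min 14 members were called. Without 90 min or without 150 min none remained, with 12 and 17 members at an unadjusted p under 0.05 and 33 of 34 estimates below 0 in both cases.

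Within the other slide, 21 members were lower in 170 than in vec and none was higher, beside 16.2% and 16.1% of all genes (limma, adjusted p under 0.05; 22 members lower and 0 higher at an unadjusted p under 0.05). The median was -0.37 beside -0.03 over all genes, and 24 members were lower at 3 of 3 times, beside 28.9% of all genes. Before removal the gap was already present: at 0 min 30 members stood lower in 170 than in vec, with a median of -0.65. At 45, 90 and 150 min 31, 25 and 30 members did, with medians of -0.57, -0.22 and -0.24. The shares of all genes lower in 170 at the 4 times were 53.9%, 51.8%, 49% and 54.7%. TOS4 (-1.38 ± 0.19), MCD1 (-1.26 ± 0.14), RNR1 (-0.91 ± 0.17), RAD27 (-0.87 ± 0.12), POL30 (-0.86 ± 0.12) and CDC6 (-0.78 ± 0.12) had the lowest estimates, with adjusted p from 0.00036 to 0.0037. Calls came from each role: 2 of 2 nucleotide supply genes, CDC6 and CDC45 of the 8 licensing and helicase genes, 4 of 5 polymerase genes, POL30 and RFC5 of the 6 clamp and loader genes, 2 of 3 RPA genes, 2 of 2 Okazaki genes, 4 of 4 cohesin genes and 3 of 4 checkpoint and repair genes. The 6 Mcm genes had estimates from -0.06 to 0.22, none of them called. With the arrays of vec and 170 alone 9 were called, as from the authors' deposited value table, and 12, 8 and 11 were called without 150, 90 and 45 min.

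The members that were lower in H than in WT were also lower in 170 than in vec: 11 genes were in both sets, which is 100% of the first and 52.4% of the second. Over all genes tested, 88 were in both, 87.1% of the first and 8.81% of the second, so most genes lower in H than in WT were also lower in 170 than in vec, whether replication genes or not. The estimates of the 34 genes in these comparisons, which share no array, had Pearson's r of 0.91 and Spearman's rho of 0.89 across genes, beside 0.74 and 0.67 over all 6165 genes tested. Genes with a larger rise tended to have the lower difference. Across the 34 genes the rise in vec and H minus WT had r of -0.72 and rho of -0.70, and the rise in WT and 170 minus vec had r of -0.70 and rho of -0.58. These correlations with the rise were not computed over all genes, so whether they are particular to the members was not tested. Genes are not independent replicates, all of them come from the same arrays, and these values are descriptions.

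**Figure D4:**
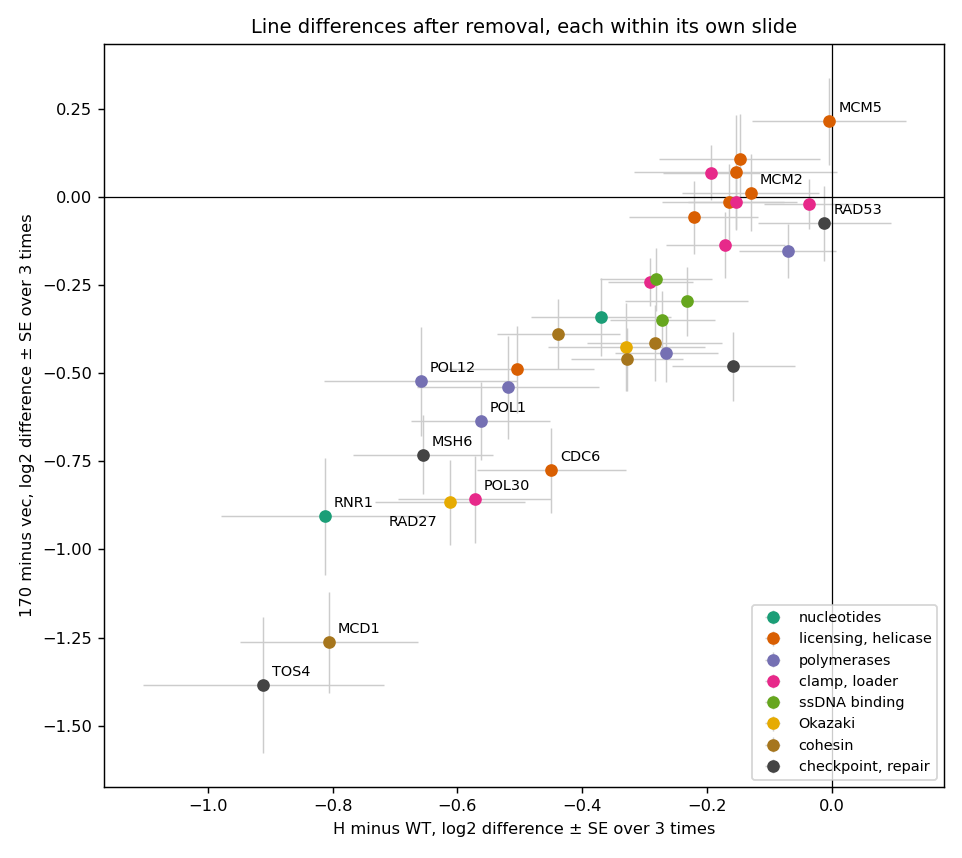
The 34 genes by H minus WT (x axis) and 170 minus vec (y axis) after removal, each within its own slide, as log2 differences with standard errors over 3 times, coloured by role, with 12 genes named. TOS4, MCD1 and RNR1 lie at the lower left, and the Mcm genes and RAD53 lie near 0 at the upper right.

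The other comparisons of lines cross the slides. Of the 34 genes, 19 were lower in H than in vec and 1 was higher, beside 24.5% and 25.1% of all genes, and 19 were lower in 170 than in WT and none higher, beside 10.9% and 6.80% (limma, adjusted p under 0.05). TOS4, MCD1 and POL30 differed by -1.33 ± 0.19, -1.16 ± 0.14 and -0.96 ± 0.12 in H minus vec, and RAD27, PRI2 and CDC6 by -1.49 ± 0.12, -0.59 ± 0.08 and -0.78 ± 0.12 in 170 minus WT (largest adjusted p = 0.0071). In H minus vec 9 members were called without 90 min and 12 without 150 min, and in 170 minus WT none and 1, where 17 and 20 had an unadjusted p under 0.05.

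WT and vec differed little in these genes after removal, with a median of 0.03, or -0.01 with arrays scaled to their median. RAD27 (0.63 ± 0.12), RAD53 (0.47 ± 0.11) and MCM2 (0.39 ± 0.11) were higher and POL30 (-0.38 ± 0.12) was lower in WT (limma, adjusted p = 0.0061, 0.013, 0.028 and 0.045), 3 and 1 of 34 genes beside 17.0% and 12.6% of all genes. The members' median changed sign with time, from -0.17 at 45 min to 0.27 at 90 min and 0.05 at 150 min, with 11, 28 and 22 members above vec. MCM2 (YBL023C) stood at -0.98, -1.41 and -1.07 in vec and at -0.53, -0.90 and -0.87 in WT over the later times, with WT above vec at each. At 45 min TOS4 stood at -1.92 in WT and -0.85 in vec, and at 90 min the lines were at -0.26 and -0.35. Without 90 min no member was called, with 1 and 3 at an unadjusted p under 0.05 upward and downward, and without 45 min 2 were called.

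H and 170 differed in no larger a share of these genes than of all genes. In 4 members a difference was called: RAD27 (0.88 ± 0.12), RAD53 (0.53 ± 0.11) and PRI2 (0.32 ± 0.08) were higher in H and RFC3 (-0.26 ± 0.08) was lower (limma, adjusted p = 0.0053, 0.015, 0.031 and 0.04999), beside 9.34% and 6.85% of all genes. RFC3 (YNL290W) stood at 0.18, 0.30 and 0.00 in H and at 0.40, 0.55 and 0.32 in 170 over the later times, below 170 at each. No member was called without 90 min or without 150 min, where 3 and 6 members had an unadjusted p under 0.05 upward and 0 and 2 downward, and 1 was called without 45 min.

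The levels of RAD27 and RAD53 are given here for each line. RAD27 (YKL113C) stood at -2.56, -1.38, -1.27 and -1.57 in vec, at -2.19, -0.86, -0.32 and -1.14 in WT, at -2.28, -1.23, -1.04 and -1.89 in H and at -3.45, -2.22, -1.91 and -2.67 in 170. Line 170 was the lowest for RAD27 at each of the 4 times, 0 min included, as for other members such as PRI2 and DUN1. After removal RAD27 in 170 differed from vec by -0.84, -0.65 and -1.11 at 45, 90 and 150 min. RAD53 (YPL153C) stood at -3.86, -2.70, -2.72 and -2.92 in vec and at -3.97, -2.98, -2.69 and -2.88 in 170, and at -3.35, -2.26, -2.02 and -2.64 in WT and -3.27, -2.35, -2.08 and -2.52 in H. Its levels separated by slide at every time, and within a slide RAD53 differed by -0.01 ± 0.11 in H minus WT and -0.07 ± 0.11 in 170 minus vec, neither of them called (limma, adjusted p = 0.95 and 0.64). For RAD53, line and slide cannot be told apart.

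Before methionine was taken away, the single array of vec read higher than those of the 3 HOG1 lines for part of the group. At 0 min 9 members were lower in WT, 10 in H and 17 in 170, and only RAD53 was higher, in H (limma, adjusted p under 0.05, 1 array a side with the error from the fit to all 16 arrays). Over all genes 12.8%, 17.3% and 18.3% were lower and 11.7%, 14.8% and 12.3% higher. TOS4 differed by -1.89 ± 0.33, -2.27 ± 0.33 and -2.45 ± 0.33 in WT, H and 170, RNR1 by -1.47 ± 0.29, -1.62 ± 0.29 and -2.30 ± 0.29, POL30 by -1.33 ± 0.21, -1.60 ± 0.21 and -1.80 ± 0.21, and MCD1 by -1.38 ± 0.25, -1.58 ± 0.25 and -1.71 ± 0.25. CDC21, CDC6, RFC5, CDC9 and DUN1 were lower in all 3 lines as well. HOG1 itself was already above vec at 0 min in these lines, as given above. No 0 min array was repeated, so the scatter of these arrays was not measured, all of these differences share the array of vec, and 170 minus vec is the only one within a slide.

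The rise from 0 min was compared with that in vec, which rests on the same array. The change from 0 min to the mean of the later times was larger than in vec for 6 members in WT, 3 in H and 6 in 170 and smaller for none (limma, adjusted p under 0.05), and it cancels a constant difference between slides. Over all genes it was larger for 5.66%, 11.6% and 13.6% and smaller for 2.64%, 6.80% and 7.43%, so the members called larger in H were a smaller share than of all genes and those in 170 a share near it. DUN1, by 0.90 ± 0.20, 1.16 ± 0.20 and 1.44 ± 0.20, CDC21, by 0.96 ± 0.22, 0.90 ± 0.22 and 1.33 ± 0.22, and RFC5, by 0.62 ± 0.14, 0.67 ± 0.14 and 0.59 ± 0.14, passed in all 3 lines. Without 90 min no member passed in WT, H or 170, where 9, 3 and 7 had an unadjusted p under 0.05 upward. Without 150 min 0, 1 and 3 passed, with 11, 8 and 8 at an unadjusted p under 0.05, and without 45 min 6 passed in H and 11 in 170.

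The change from 0 min differed between H and WT for none of the 34 genes and for none of the 6165 genes (limma, adjusted p under 0.05), with 1 member, and 319 of all genes, at an unadjusted p under 0.05. Of the 34 estimates 27 were negative, with a median of -0.15. At 0 min H stood below WT for 27 of the 34 genes already, with a median of -0.16, and at 45, 90 and 150 min for 31, 32 and 32, with medians of -0.22, -0.36 and -0.34. Of all genes 56.6%, 51.8%, 56.8% and 54.8% were below WT at the 4 times.

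**Figure D5:**
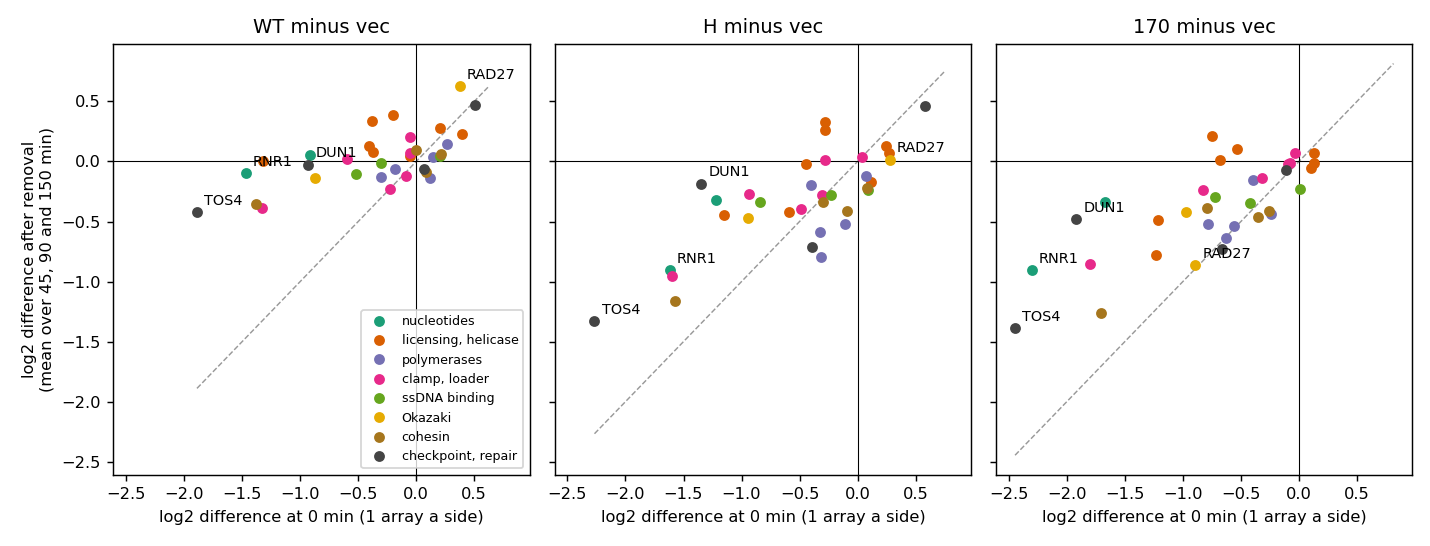
The 34 genes by their log2 difference from vec at 0 min (x axis, 1 array a side) and after removal (y axis, mean over 45, 90 and 150 min) for WT, H and 170, coloured by role, with equality as a dashed line. TOS4 and RNR1 are low at 0 min in all 3 panels, after removal the WT points lie around 0, and many points of H and 170 stay below 0.

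Genes that work with the 34 were read beside them, from lists chosen with earlier results of these data known. Of 44 other replication genes, 27 were higher and 6 lower at 45 min, beside 31.8% and 44.5% of all genes. Their median was 0.35. CTF18, of the clamp loader used in cohesion, rose by 1.91 ± 0.15 and the reductase gene RNR2 by 1.51 ± 0.15, while the licensing factor gene TAH11 fell by 0.78 ± 0.12 and the GINS gene PSF2 by 0.70 ± 0.13 on the log2 scale (limma, largest adjusted p = 0.00035). Between 90 and 150 min 7 of the 44 fell and none rose, beside 2.16% and 1.54% of all genes. PDS5, a cohesin regulator, had the lowest value with -0.76 ± 0.10. In H minus WT 3 were lower and none higher, beside 1.64% and 4.33% of all genes, with PDS5 at -0.56 ± 0.09. In 170 minus vec 17 were lower and 2 higher, beside 16.2% and 16.1% of all genes. There the reductase gene RNR4 differed by -0.67 ± 0.09 and the origin recognition gene ORC5 by 0.40 ± 0.08.

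Of 8 genes of the G1/S transcription factors and their regulators, 3 were higher and 2 lower at 45 min, and 5 were higher and none lower at 90 min, with YOX1 at 3.06 ± 0.30 and NRM1, a repressor of MBF, at 2.61 ± 0.18 (limma, largest adjusted p = 1.6e-06). At 45 and 90 min 31.8% and 33.7% of all genes were higher and 44.5% and 41.0% lower. In 170 minus vec 5 of the 8 were lower and none higher, beside 16.2% and 16.1% of all genes. There YHP1 differed by -1.75 ± 0.19 and YOX1 by -1.66 ± 0.28. In H minus WT the estimates ran from -0.69 for YOX1 to 0.08 for SWI6, none of them called.

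Of 7 G1 and S cyclin genes, 6 were higher at 45 min and 7 at 90 and at 150 min. The shares of all genes higher at these times were 31.8%, 33.7% and 33.5%. CLB6, an S-phase cyclin, had a fitted change of 5.25 ± 0.42 at 90 min, with its probe not well above background on the 0 min arrays of WT, H and 170, and the G1 cyclin gene PCL1 rose by 3.99 ± 0.52 (limma, largest adjusted p = 2.0e-05). Of the 7 cyclin genes, 6 were lower in 170 than in vec, CLN1 by -1.71 ± 0.19, and 1 of 7, again CLN1 by -0.89 ± 0.19, was lower in H than in WT (adjusted p = 0.00035 and 0.035). In these comparisons 16.2% and 1.64% of all genes were lower. At 0 min 6 of 7 were lower than in vec in each HOG1 line, beside 12.8%, 17.3% and 18.3% of all genes in WT, H and 170. All of these counts use the same 0 min array of vec. FAR1, which inhibits the G1 cyclin kinase in response to pheromone, was lower than in vec after removal by -1.41 ± 0.15 in WT, -1.98 ± 0.15 in H and -1.84 ± 0.15 in 170 (largest adjusted p = 0.00073).

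The histone genes, which are expressed in S phase under other regulators, had another time course. Of 8 genes, 7 were lower and 1 (HTB2) higher at 45 min, and all 8 rose between 45 and 90 min, with a median of 1.34 and HTB2 at 1.75 ± 0.17 (limma, adjusted p = 0.00033). At 45 min 44.5% of all genes were lower and 31.8% higher, and 13.9% rose between 45 and 90 min. After removal 8 of 8 histone genes were lower in WT, H and 170 than in vec, with medians of -0.78, -1.36 and -1.19. In H 6 of 8 were lower than in WT. The shares of all genes lower in these comparisons were 12.6%, 24.5%, 16.2% and 1.64%. Near-identical histone gene pairs can share signal between probes, so the 8 values are not independent. Of 12 genes of G2 and M phase, 5, 10 and 11 were higher and 2, 1 and 1 lower at 45, 90 and 150 min, and at 90 min CLB2 was higher by 3.01 ± 0.39 and CDC20 lower by -1.26 ± 0.15 (largest adjusted p = 2.1e-05). At 45, 90 and 150 min 31.8%, 33.7% and 33.5% of all genes were higher and 44.5%, 41.0% and 40.0% lower. In 170 minus vec 10 of the 12 were lower, and in H minus WT 1 was, beside 16.2% and 1.64% of all genes. Of 6 genes induced by DNA damage, 3, 4 and 3 were higher and 0, 1 and 1 lower in WT, H and 170 than in vec after removal. The shares of all genes were 17.0%, 25.1% and 16.1% higher and 12.6%, 24.5% and 16.2% lower.

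Markers of cell type moved with some of these comparisons. The 7 a-specific genes lay well above background on 16 of 16 arrays. None of them was higher and 7 of 7 were lower in H and in 170 than in vec after removal, 6 of 7 in WT, and 7 of 7 at 0 min in each of the 3 lines, and 4, 6 and 4 were lower at 45, 90 and 150 min than at 0 min. The 4 alpha-specific genes ran from -9.26 to -1.76 over the arrays, MF(ALPHA)2 being well above background on 13 arrays. Of these 4 genes 3 were lower and none higher at 45, 90 and 150 min than at 0 min, and 1, 1 and 2 were lower than vec after removal in WT, H and 170. Of 8 meiotic genes 6 were lower at 45 min and none was higher, and DMC1 and ZIP1 lay between -6.21 and -3.97 throughout. The shares of all genes lower at 45, 90 and 150 min were 44.5%, 41.0% and 40.0%. After removal 12.6%, 24.5% and 16.2% of all genes were lower in WT, H and 170 than in vec, and at 0 min 12.8%, 17.3% and 18.3% were. The counts at 0 min all use the same array of vec. The part of these markers in the differences of the replication genes was not tested.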

How the data were processed

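Single-colour Agilent yeast arrays of 4 lines at 4 times (16 arrays) were analysed. Per the file headers, signals come from Agilent Feature Extraction 10.7.1.1, and its processed intensity is corrected for background and not scaled between arrays. The authors' deposited value table holds log2 values of 6107 probes, centred per probe within a slide of 8 arrays, as its values show, and within-slide differences taken from it correlated with the present ones at 0.998 or above. The labels give no extraction protocol.

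Levels are log2 of the processed intensity, averaged over 2 spots, minus the 75th percentile of the array. Probes detected above background on fewer than 3 of 16 arrays were dropped. The RefSeq gene table, whose assembly differs from that in the headers, gave names for 5738 of 6227 systematic names, and no positions are given. Fits used limma 3.58.1 in R 4.3.3 (lmFit, eBayes, two-sided), with Benjamini-Hochberg adjustment over 6165 genes and a threshold of 0.05, and were tested on simulated data with 200 changed genes. Differences between lines used the 12 later arrays, with the time as a term, and all other fits used 16 arrays.

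The members and lists were chosen with earlier results of these data known. Values on every array are given for the members with the largest and smallest change of a role and, in each comparison of lines, for the 3 with the smallest adjusted p in each direction, and other members by range and count. MCM2 and RFC3 are exceptions, with levels given only at the later times and for the lines compared. Members named beyond this rule were chosen after their values were seen. Alternatives changed the background correction (normexp, offset 50), scaling, filter, variance model, and which lines, times or slides entered a fit. The values of 1 gene of a list beside the members are not reported here.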

Additional observations from a re-analysis of the deposited data

Results flagged for a closer look

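For 15 values, the change from 0 min in a line differed from that in vec by a test of the difference itself (limma, adjusted p under 0.05), and each was a larger rise than in vec. In WT these were RNR1 (1.37, adjusted p = 0.038), CDC21 (0.96, 0.034), CDC6 (1.33, 0.016), POL30 (0.95, 0.049), RFC5 (0.62, 0.029) and DUN1 (0.90, 0.027). In H they were CDC21 (0.90, adjusted p = 0.026), RFC5 (0.67, 0.014) and DUN1 (1.16, 0.0081). In 170 they were RNR1 (1.40, adjusted p = 0.020), CDC21 (1.33, 0.0056), MCM5 (0.96, 0.026), POL30 (0.94, 0.027), RFC5 (0.59, 0.018) and DUN1 (1.44, 0.0025). All of them use the same array of vec at 0 min, and for RNR1, CDC21, CDC6, POL30, RFC5, DUN1 and MCM5 that array held the highest of the 4 levels at 0 min. The part of that array in these values was not tested.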

How the results depend on the processing

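No direction of a called value reversed in any alternative. For genes picked by the size of their change or by their adjusted p, 767 values under alternatives kept their call. Another 62 lost it and 1 gained it (MCM4 at 45 min). These values cover changes from 0 min and differences between lines. They leave out the steps from 45 to 90 min and from 90 to 150 min. Counts of members called moved by over 1.5 times in the cases below, and the cause was not tested. From 45 to 90 min 19 became 12 with quantile normalization, 12 with median scaling, 0 on the slide of vec and 170, and 3, 1 and 4 without 170, H and WT. From 90 to 150 min 12 became 0 and 7 on the slides of vec with 170 and of WT with H, 0 without 170, H or WT, and 21 without vec. In WT minus vec 4 became 2 without 45 and 0 without 90 min. In H minus vec 20 became 12 without 150 and 9 without 90 min. In 170 minus vec 21 became 9 with the authors' deposited table and 9 on its own slide (chosen after seeing the data), and 12, 11 and 8 without 150, 45 and 90 min. In H minus WT 11 became 0 without 150 or 90 min. In 170 minus WT 19 became 1 without 150 and 0 without 90 min, and in H minus 170 4 became 0 without 150 or 90 min and 1 without 45 min. For the change from 0 min against vec, 6 in WT became 0 and 0 without 150 and 90 min, 3 in H became 1, 6 and 0 without 150, 45 and 90 min, and 6 in 170 became 3, 11 and 0 in the same order. Of all genes called from 45 to 90 min, 57.2% were higher, and 38.6% with median scaling and 44.9% with quantile normalization. Median scaling moved this share from 38.4% to 48.5% in 170 minus WT and from 57.7% to 47.5% in H minus 170, and quantile normalization moved it from 68.2%, 63.1% and 64.6% to 53.3%, 50.1% and 50.4% for the change from 0 min in WT, H and 170 against vec. With normexp it moved from 72.6% to 56.0% in H minus WT, from 57.7% to 38.2% in H minus 170 and from 68.2% to 52.7% for the change in WT against vec. No paired analysis was possible because the labels give no replicate numbers to use as a block, beside the terms for line and time that the fits already hold. With 1 array per group, no within-group check of outlying arrays was run. No other tool than limma was run.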
